A study of Mus musculus with 62 samples.

Results

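Brown adipose tissue of mice carrying a cachectic melanoma was compared with that of mock-injected mice 2 weeks after injection, the earliest time point of the series. The comparison holds 10 of the 62 libraries: 5 from mice that received melanoma cells described as cachectic (CAC) and 5 from mice with a mock injection (Con), chosen by their sample titles. The 5 libraries of the same week from mice that received melanoma cells described as non-cachectic (NCAC) are shown beside them. The labels describe every animal as a female of 2 months and give the strain as C57BL6/J, whereas the series text names NCI Ath/nude mice, so the immune background of the hosts is not settled by these sources. No genetic change beyond the named strain, and no drug, is listed for any group. The tumour cells are named only as melanoma cells of either kind, and the extraction text also mentions a lung tumour model at another time. The libraries are called biological replicates, with 1 tissue per library and no statement on pooling. Levels are in TPM, which corrects each gene for transcript length and each library for its total. Read totals cannot be had from TPM, so depth is unknown and counting intervals are not given. At 2 weeks between 11240 and 11768 genes reached 1 TPM in the CAC libraries, 11030 to 11269 in Con and 10860 to 11688 in NCAC.

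Brown fat burns fatty acids in mitochondria that are uncoupled by UCP1, and it releases heat instead of storing energy. The interscapular pad lies directly on the muscles of the back, and skeletal muscle is so rich in sarcomere and calcium-handling transcripts that a small amount of it is visible in a fat library. Cachexia, the wasting of muscle and fat under some tumours, comes in many tissues with acute phase proteins, complement factors and macrophage activity. Complement is a cascade of plasma proteases in which C1q, C4 and C2 form the classical arm and factor B the alternative arm. Fat tissue makes several of these factors itself.

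Skeletal muscle transcripts were higher in the CAC libraries than in the Con libraries. A muscle score, the mean log2(TPM + 1) of 26 genes of fast skeletal muscle, was 8.34, 7.25, 6.31, 7.05 and 4.98 in CAC libraries 1 to 5. In Con libraries 1 to 5 it was 1.89, 4.39, 4.02, 5.77 and 3.76. The means were 6.79 ± 1.25 (SD, n = 5) and 3.97 ± 1.40 (n = 5), a difference of 2.82, with p = 0.0159 in an exact 2-sided permutation test (adjusted over 3 library measures 0.0238, smallest possible p 0.00794). The groups overlapped in 1 pair only: CAC library 5 lay below Con library 4. The NCAC libraries, at 5.86 ± 0.774, fell between them. Con at 2 weeks had the lowest mean score and CAC at 2 weeks the highest of the 12 groups, and no such gap between CAC and Con was present later (5.88 against 6.41 at 4 weeks, 5.39 against 5.25 at 6 weeks, 5.60 against 5.33 at 8 weeks).

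**Figure D1:**
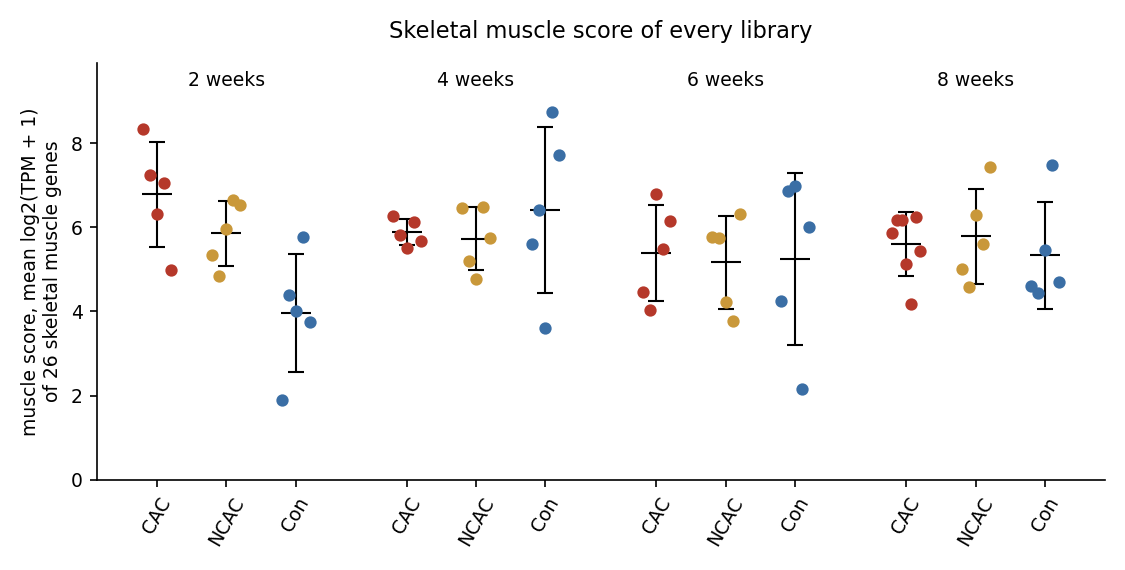
Muscle score (mean log2(TPM + 1) of 26 skeletal muscle genes, vertical axis) of every library, by week and group. Points are libraries and bars are the mean and SD; at 2 weeks the CAC libraries lie between 4.98 and 8.34 and the Con libraries between 1.89 and 5.77.

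Acta1, the actin of skeletal muscle, shows the size of the difference. It measured 5104, 2343, 1331, 1962 and 522 TPM in CAC libraries 1 to 5 and 25.9, 278, 201, 816 and 177 TPM in Con libraries 1 to 5. Its log2 difference was 3.24 (SE 0.85, adjusted p = 0.0236). All transcripts of the muscle lists together took 0.258% to 2.48% of TPM in CAC and 0.0270% to 0.434% in Con (exact permutation p = 0.0159, 2-sided, adjusted 0.0238). Whether this RNA came from muscle left on the pad or from cells within it was not tested. The tissue itself carried its label in both groups: the summed level of 12 brown adipocyte markers was 20896 to 26411 TPM in CAC and 18262 to 23724 TPM in Con. Transcripts of the mitochondrial genome made up 56.2% ± 1.31 (n = 5) of TPM in CAC and 58.2% ± 1.17 (n = 5) in Con (exact permutation p = 0.0397, 2-sided, adjusted 0.0397), a difference that missed the threshold without any 1 of 6 of the libraries.

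Across the transcriptome the comparison was almost entirely one of higher values in CAC. Of 12581 genes that reached 1 TPM in 5 or more libraries, 582 (4.63%) passed an adjusted p of 0.05 in limma, of which 576 (4.58%) were higher in CAC and 6 (0.0477%) lower. At an unadjusted p under 0.05 there were 2148. The median log2 difference of all genes was 0.09. After median-of-ratios rescaling that median moved to -0.02 and the calls became 509 higher and 119 lower. Single libraries weighed heavily on the number of calls: it fell to 58 without CAC library 1, 72 without CAC library 2, 91 without Con library 1, 181 without CAC library 4, 196 without Con library 5 and 347 without Con library 3, and it rose to 888 without CAC library 5.

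The called genes were divided by how they behaved in libraries that the comparison does not use. In the 52 libraries of the other 10 groups, each gene was correlated with the muscle score after both were centred within their group, and a gene with r of at least 0.6 was termed muscle-tracking. All 26 genes of the score met this, as did 390 of the 12470 genes outside both muscle lists (3.13%). Among the 490 called genes outside the lists the share was 37.6%, or 184 genes. The remaining 306 called genes, 300 higher and 6 lower in CAC, did not track muscle by this measure. With a threshold of 0.4 that number was 205, and with 0.8 it was 350. At 0.4 the tracking share was 58.2% of the called genes outside the lists, beside 8.16% of all genes outside them. The 306 genes had a median r of 0.32 with the score, beside 0.04 over all tested genes. They thus leaned toward muscle below the threshold. The 92 called members of the muscle lists, of 111 tested, make up the rest, all of them higher.

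A second fit held the muscle score as a covariate, which takes out of each gene what follows the score at the slope seen within all 12 groups. In that fit 2 of the 12470 genes outside the muscle lists (0.016%) passed, C4b and the predicted gene Gm20721, against 520 at an unadjusted p under 0.05. The muscle-tracking genes kept a median of 9.96% of their log2 difference. The 306 other called genes kept a median of 69.4%, all with the same sign; 272 of them kept at least 50% and 119 at least 75%. The classes and the slope of the covariate come largely from the same libraries, so this contrast between the classes follows from how they were made and is a description. The typical standard error rose only from 0.130 to 0.144. The score and the group are linked at this week, so a part of any difference that goes with both cannot be told apart by this covariate.

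**Figure D2:**
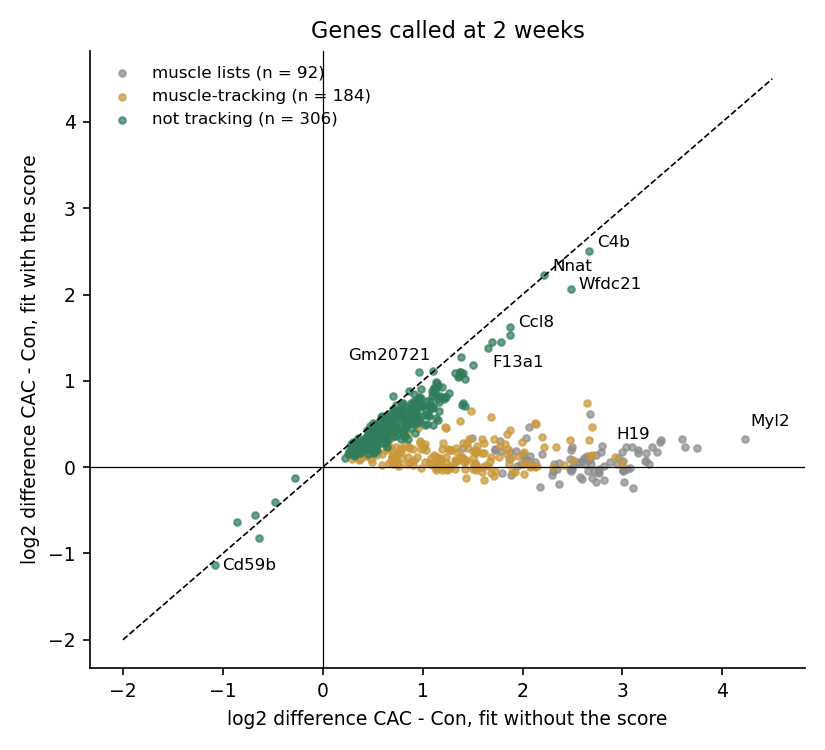
Log2 difference CAC minus Con of the 582 called genes in the fit without (horizontal axis) and with the muscle score (vertical axis), each point a gene. Genes of the muscle lists (n = 92) and muscle-tracking genes (n = 184) lie near 0 on the vertical axis, and the other genes (n = 306) lie between that level and the dashed line of equal values for the most part, with C4b at 2.67 and 2.51.

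Several genes that are usually discussed as brown fat genes belonged to the muscle-tracking class. Tbx15, a transcription factor of brown and of glycolytic muscle cells, was the 1 of 26 genes of a thermogenesis and brown identity list that was called. It measured 13.6, 10.2, 6.42, 7.48 and 2.97 TPM in CAC libraries 1 to 5 and 1.24, 1.83, 1.75, 3.35 and 1.71 TPM in Con libraries 1 to 5. Within each group the libraries had the same order as for Acta1, with the same overlapping pair. Its log2 difference was 1.53 (SE 0.40, adjusted p = 0.0236) without the score and 0.20 (SE 0.21) with it, and its r with the score in the other groups was 0.89. Epdr1, a protein secreted by adipocytes, went from 1.85 to 0.21 (r = 0.95). Fitm1, a lipid droplet protein of the endoplasmic reticulum that muscle expresses strongly, went from 2.41 to 0.03 (r = 0.97). Sln and Ckmt2, which serve calcium cycling and creatine cycling, were placed in the muscle list and went from 2.99 to 0.18 and from 3.01 to -0.17. The imprinted RNA H19 went from 2.92 to 0.12 (r = 0.96), and the small heat shock protein gene Cryab from 2.51 to 0.08 (r = 0.93). Atp2a2, the calcium pump SERCA2 of slow muscle and of many other cells, went from 0.70 to 0.20 (r = 0.66).

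The start sites of the genes carry letters that the classes did not use. For 9435 of the tested genes the RefSeq table (build GRCm38.p6) gives at least 1 start, and the 250 bases before each start were searched on both strands. A gene counted as holding the letters if any of its windows held them. The number of starts per gene was not matched between the classes. Shares of all starts count windows and not genes, so they are not alike. The letters CAGCTG, an E-box form bound by myogenic factors, were present before 14.4% of tested genes and 13% of all 32851 starts of the table. They were present before 32 of 67 called muscle list genes (47.8%), 36 of 129 called muscle-tracking genes (27.9%) and 36 of 219 genes called higher that did not track muscle (16.4%). For letters of MEF2 sites (CTA, any 4 bases, TAG) the shares were 3.35% of tested genes, 3.20% of all starts, 13.4%, 10.1% and 1.37% in the same order. For GAGGAA, core letters of sites of the myeloid factor PU.1, they were 25.9%, 23.3%, 26.9%, 24.8% and 33.3%. For TTCNNNGAA, letters of STAT sites, they were 7.19%, 7.02%, 2.99%, 8.53% and 7.31%. A match is a description of letters, not of a bound site. The motifs were searched separately, so 1 window can hold several. The median GC content of these windows differed too: 60% over tested genes, 54.4% in the muscle list genes, 58.8% in the tracking genes and 56.4% in the others.

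Windows of 2 muscle genes and of 2 macrophage genes that did not track muscle are given to show the letters in place, 5′ to 3′ on the strand of the gene, with CAGCTG and GAGGAA (or its reverse complement) in capitals. All 4 lie on the minus strand: Acta1 at chr8:123894776-123895025, Ckmt2 at chr13:91876886-91877135, C1qb at chr4:136886201-136886450 and Cd68 at chr11:69666171-69666420.
Acta1: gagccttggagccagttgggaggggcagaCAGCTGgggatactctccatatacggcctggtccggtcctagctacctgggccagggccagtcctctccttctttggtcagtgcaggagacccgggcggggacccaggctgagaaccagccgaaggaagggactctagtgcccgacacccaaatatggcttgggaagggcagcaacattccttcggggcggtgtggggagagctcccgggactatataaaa
Ckmt2: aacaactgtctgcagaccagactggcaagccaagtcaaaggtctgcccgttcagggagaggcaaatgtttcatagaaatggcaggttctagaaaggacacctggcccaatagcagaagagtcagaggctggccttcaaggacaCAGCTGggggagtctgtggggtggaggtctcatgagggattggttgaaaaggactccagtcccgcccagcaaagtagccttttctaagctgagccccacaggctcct
C1qb: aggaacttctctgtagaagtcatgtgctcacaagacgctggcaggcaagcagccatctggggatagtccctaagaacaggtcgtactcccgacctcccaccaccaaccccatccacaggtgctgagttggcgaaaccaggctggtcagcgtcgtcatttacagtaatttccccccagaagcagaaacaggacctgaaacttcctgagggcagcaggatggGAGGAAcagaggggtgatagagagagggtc
Cd68: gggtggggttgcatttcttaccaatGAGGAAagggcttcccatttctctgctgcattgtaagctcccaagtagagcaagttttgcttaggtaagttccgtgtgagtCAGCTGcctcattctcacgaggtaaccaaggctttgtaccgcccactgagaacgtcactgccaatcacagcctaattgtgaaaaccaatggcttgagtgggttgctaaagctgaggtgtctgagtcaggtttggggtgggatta
The Acta1 and Ckmt2 windows each hold CAGCTG once and no GAGGAA, and the C1qb window holds GAGGAA once and no CAGCTG. The Cd68 window holds each of them once, so single windows do not sort cleanly by class. These 4 were picked after the letters were seen and stand for no count.

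C4b, the gene for the complement factor C4, was 1 of the 2 genes that passed with the score. It measured 25.8, 71.1, 131, 90.5 and 23.8 TPM in CAC libraries 1 to 5 and 8.68, 4.29, 13.8, 3.32 and 15.9 TPM in Con libraries 1 to 5. Every CAC library was above every Con library. The 2 groups did not overlap, in either direction, for 8.66% of tested genes. The difference was 2.67 on the log2 scale (SE 0.37, adjusted p = 2.41e-05) without the score and 2.51 (SE 0.41, adjusted p = 0.0019) with it. CAC libraries 1 and 5, which have the highest and the lowest muscle score of their group, had the 2 lowest C4b values, and in the other groups r between C4b and the score was 0.27. Without Con library 4 the adjusted p with the score was 0.143 at a difference of 2.10, and in a fit of the 10 libraries alone it was 0.49 at 3.15; without the score C4b passed under every alternative run. C4b lies at chr17:34728380-34743882 in mm10 (GENCODE vM21). Its near-identical neighbour C4a, at 4.12 ± 2.37 TPM in CAC and 2.00 ± 1.29 TPM in Con, was not called (0.74, SE 0.35, adjusted p = 0.259), and reads could have been split between the 2 genes.

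C4b was also higher in CAC than in the other tumour group. The NCAC libraries measured 10.01, 7.28, 9.25, 22.5 and 10.9 TPM, so that the lowest CAC library stood just above the highest NCAC library. CAC minus NCAC was 2.22 (adjusted p = 0.0018), and NCAC minus Con was 0.45 (adjusted p = 0.87). C4b was 1 of 5 genes called between CAC and NCAC at 2 weeks (0.0397% of tested genes); the others were Gm20721, Rap1a, Adam11 and Csf2rb, named here because the count is small. Gm20721, at chr2:174330319-174346712, was low throughout: 2.25, 7.52, 1.69, 1.15 and 0.881 TPM in CAC libraries 1 to 5 and 0.233 to 0.752 TPM in Con. Its difference was 1.11 (adjusted p = 0.0013) without and 1.12 (adjusted p = 0.0379) with the score, and CAC library 2 stood far above the rest. The position of Gm20721 lies within that of Gnas (chr2:174284320-174346744). Gnas measured 252 ± 65.7 TPM in CAC and 238 ± 41.7 TPM in Con and was not called (0.06). Whether reads were shared between Gm20721 and Gnas was not tested. Csf2rb, the beta chain of the receptors for GM-CSF, IL-3 and IL-5, measured 6.98, 7.74, 13.1, 26.8 and 6.61 TPM in CAC and 1.96 to 8.79 TPM in Con, with overlapping groups, a difference of 0.96 (adjusted p = 0.0247) without the score and 1.10 (adjusted p = 0.281) with it.

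The complement list as a whole leaned upward. Of its 15 tested members 7 rose and none fell, with a median difference of 0.79 (0.68 after median-of-ratios rescaling, with the same 7 to 0 split), beside 0.09 over all genes. With the score 1 was called and all 15 stayed positive, beside 70.6% of all tested genes, with a median of 0.50. Serping1, the C1 inhibitor, measured 58.6, 64.6, 59.0, 60.4 and 44.4 TPM in CAC libraries 1 to 5 and 22.1, 23.4, 27.0, 22.5 and 25.4 TPM in Con libraries 1 to 5. Its groups were far apart, at 1.21 (SE 0.22, adjusted p = 0.0016), and 0.79 (adjusted p = 0.281) with the score, with r = 0.53 in the other groups. Cfb, factor B of the alternative arm, measured 7.88, 15.3, 14, 10.9 and 7.80 TPM in CAC and 2.24, 3.04, 5.00, 3.81 and 3.58 TPM in Con, at 1.41 (adjusted p = 0.0028), and 1.10 (adjusted p = 0.281) with the score. C2, the partner of C4 in the classical arm, rose by 1.15 and its value with the score was 0.83 (adjusted p = 0.281). C1qa, a chain of C1q, rose by 1.11 and Cd55, a surface brake on complement, by 0.78. C3, the central factor of the cascade, measured 562 ± 126 TPM in CAC and 415 ± 96.1 TPM in Con and was not called (0.44, adjusted p = 0.362). Cfd, factor D, was more abundant than C3, at 2862 ± 795 TPM in CAC and 1840 ± 784 TPM in Con. It was not called either (0.69, adjusted p = 0.28 in limma).

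**Figure D3:**
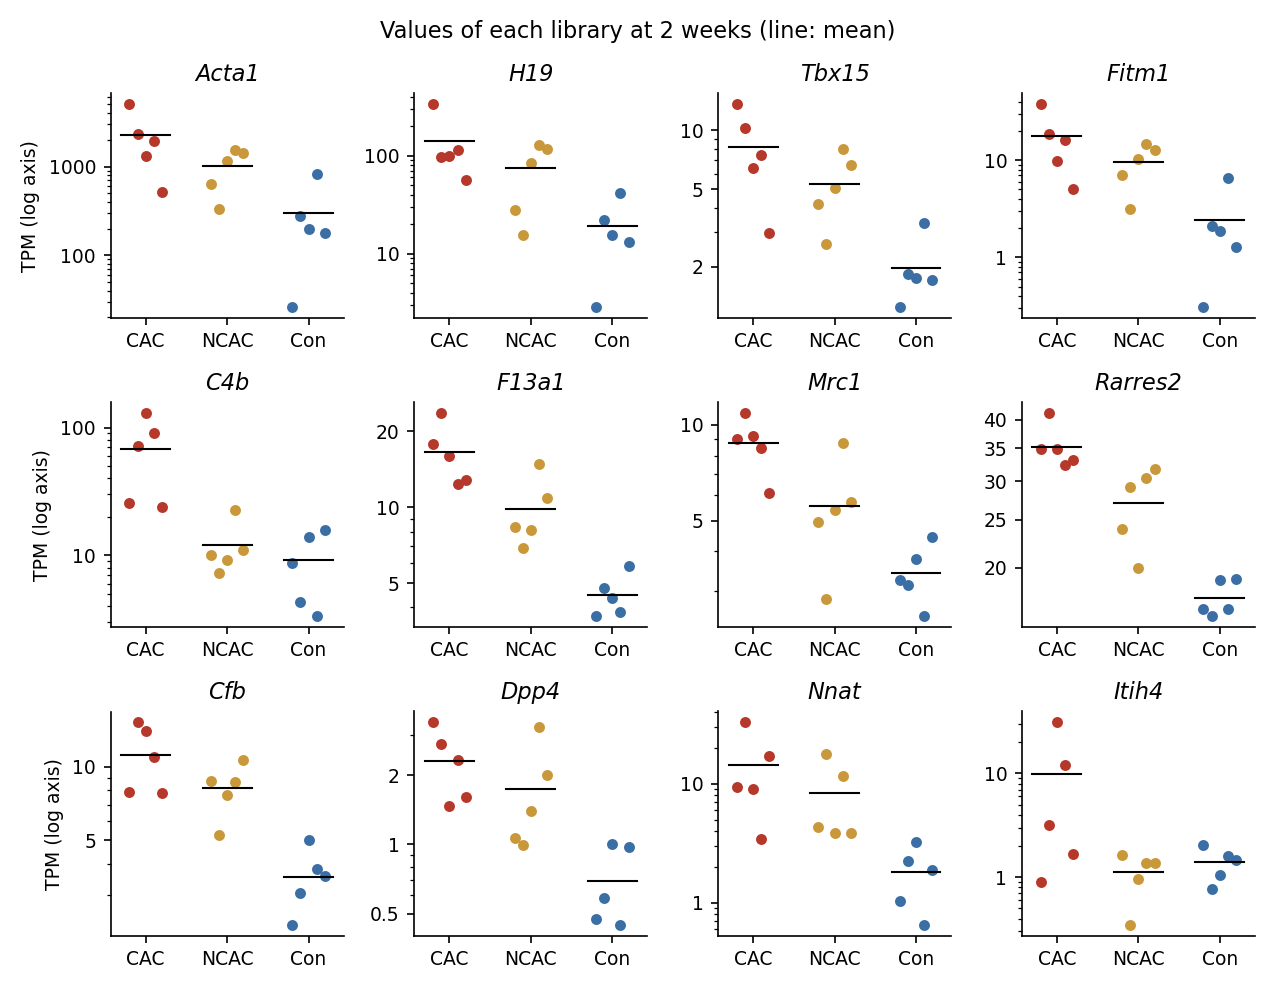
TPM of 12 genes in each library of 2 weeks (log axis), with CAC, NCAC and Con side by side; points are libraries 1 to 5 from left to right and the line is the mean. The top row holds genes that go with muscle, the second row genes such as C4b and F13a1, in which all CAC libraries lie above all Con libraries, and the bottom row ends with Itih4, in which only some CAC libraries are high.

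Of 16 tested macrophage markers 9 rose in CAC and none fell, against 4.58% higher over all tested genes, the share beside which the counts of the other lists also stand: Cd68, Csf1r, C1qa, C1qb, C1qc, Mrc1, Cd163, Timd4 and Lyve1. The median difference was 0.85, and 0.58 with the score, where 14 stayed positive, beside 70.6% of all tested genes, and none was called. The markers summed to 184 to 280 TPM in CAC, 102 to 147 TPM in Con and 105 to 246 TPM in NCAC. In bulk tissue more cells of a type and more RNA per cell cannot be told apart. Mrc1, the mannose receptor of resident macrophages, measured 9.05, 10.9, 9.23, 8.45 and 6.09 TPM in CAC libraries 1 to 5 and 3.25, 3.14, 3.79, 2.50 and 4.45 TPM in Con libraries 1 to 5, with no overlap. Its difference was 1.13 (SE 0.22, adjusted p = 0.0029) without and 0.99 (SE 0.25, adjusted p = 0.221) with the score. Csf1r, the receptor that macrophages need to survive, rose by 0.96 and stood at 0.81 with the score. The r values of these 9 genes with muscle in the other groups ran from 0.15 for C1qc to 0.48 for Timd4.

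The next 5 genes are named by the size of their moderated t in the fit with the score, where none of them passed. F13a1, the A subunit of coagulation factor XIII, measured 17.8, 23.7, 16.0, 12.4 and 12.8 TPM in CAC libraries 1 to 5 and 3.68, 4.78, 4.36, 3.84 and 5.85 TPM in Con libraries 1 to 5. The lowest CAC library, at 12.4 TPM, stood well above the highest Con library. The difference was 1.65 (SE 0.29, adjusted p = 9.92e-04), and 1.38 (SE 0.31, adjusted p = 0.15) with the score. Cd209d, a lectin of the DC-SIGN family, measured 5.02 to 11.7 TPM in CAC and 0.644 to 2.28 TPM in Con, at 1.78 (adjusted p = 0.0017), and 1.45 (adjusted p = 0.221) with the score. Folr2, a folate receptor of tissue macrophages, rose by 1.38 and stood at 1.08 (adjusted p = 0.281) with the score, and Dab2, an endocytic adaptor, rose by 0.66 and stood at 0.61 (adjusted p = 0.281). Wfdc21, a small secreted antiprotease-like protein, measured 37.4, 64.9, 100, 60.2 and 26.9 TPM in CAC and 7.99, 4.45, 15.1, 10.7 and 7.77 TPM in Con, at 2.48 (adjusted p = 0.0024), and 2.06 (adjusted p = 0.221) with the score. Retnla, Cbr2 and Clec10a, macrophage genes that fall outside the rule for named genes and were chosen after their values were seen, rose by 1.87, 1.38 and 1.36. Of the markers of neutrophils and monocytes 0 of 7 were called, with a median of 0.00, and Ly6c2 measured 6.89 ± 1.5 TPM in CAC and 6.35 ± 0.939 TPM in Con.

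Of 14 tested chemokines and cytokines 5 rose (4 after median-of-ratios rescaling) and none fell, with a median of 0.55, and 0.37 with the score. Ccl6 and Ccl9, macrophage chemokines, rose by 1.70 and 1.37. Ccl8, a monocyte attractant, measured 3.27, 8.47, 17.2, 9.03 and 3.14 TPM in CAC libraries 1 to 5 and 0.414, 1.01, 1.40, 1.39 and 1.86 TPM in Con libraries 1 to 5, at 1.87 (SE 0.50, adjusted p = 0.0239), and 1.62 (adjusted p = 0.624) with the score. Its highest values lay in CAC libraries 2 to 4, as did those of C4b and Wfdc21. Csf1, the ligand of Csf1r, rose by 0.63, and Il33, an alarmin of stromal cells, by 1.07. Rarres2, the chemoattractant chemerin made by adipocytes and stroma, measured 34.8, 41.3, 34.8, 32.4 and 33.1 TPM in CAC and 16.4, 15.9, 18.9, 16.4 and 19 TPM in Con. The groups were narrow and wide apart, at 0.98 (SE 0.17, adjusted p = 0.0013), and 0.80 (SE 0.19, adjusted p = 0.193) with the score.

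Of 17 tested markers of fibroblasts and adipocyte progenitors 8 rose (Pdgfra, Dpp4, Cd34, Ly6a, Dcn, Gsn, Clec3b and Cd55) and none fell, with a median of 0.79, and 0.47 with the score, where 0 were called. The list summed to 1295 to 2069 TPM in CAC and 751 to 1101 TPM in Con. Dpp4, a surface peptidase of early progenitors, measured 3.42, 2.75, 1.47, 2.33 and 1.62 TPM in CAC libraries 1 to 5 and 0.475, 0.585, 1.00, 0.444 and 0.972 TPM in Con libraries 1 to 5. Its difference went from 0.95 (adjusted p = 0.0028) to 0.55 (adjusted p = 0.518) with the score, and its r of 0.60 lay just under the threshold for a muscle-tracking gene. Gsn, the actin-severing protein gelsolin, went from 1.01 to 0.70, and Clec3b, the plasminogen-binding tetranectin, from 1.16 to 0.76. Skeletal muscle holds fibroblasts of its own, and how much of these transcripts came with the muscle was not tested. Of 27 extracellular matrix genes all 27 were positive, beside 74.1% of all tested genes, and 1, the gelatinase Mmp2 (0.96), was called; their median was 0.59, and 0.44 with the score. Pcolce, which speeds collagen processing, measured 20.0 to 23.2 TPM in CAC and 10.8 to 12.5 TPM in Con, at 0.89 (adjusted p = 0.0026), and 0.75 (adjusted p = 0.221) with the score.

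**Figure D4:**
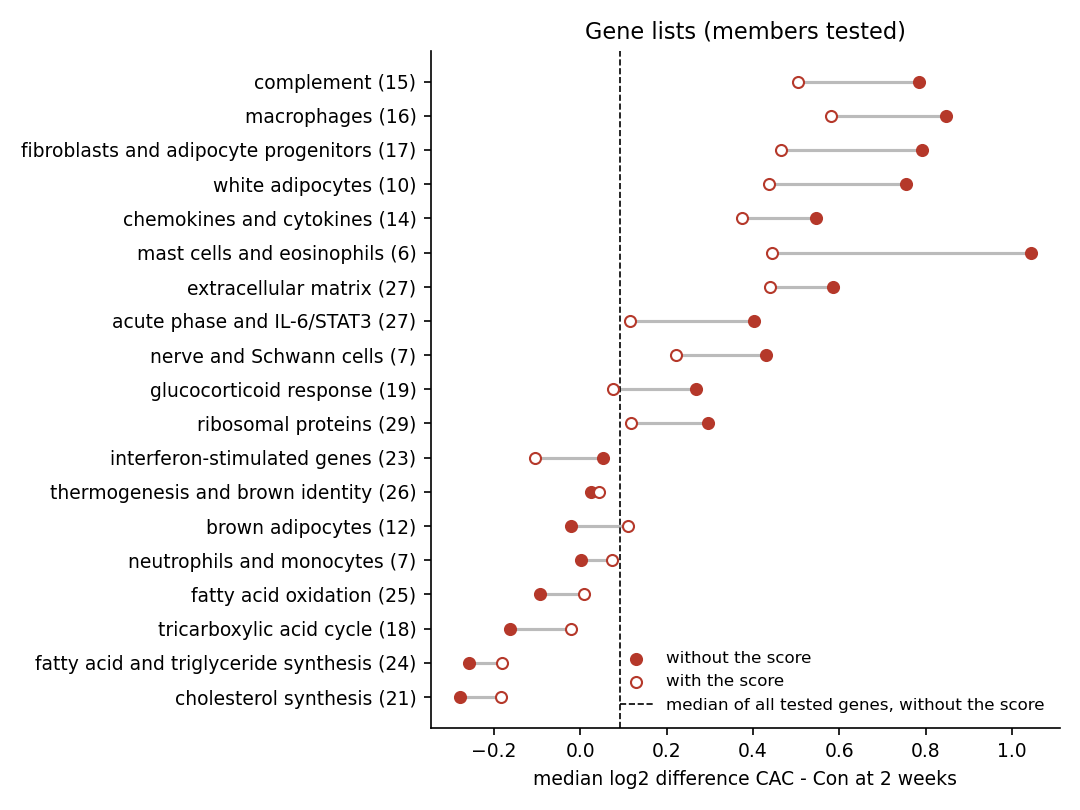
Median log2 difference CAC minus Con over the tested members of 19 gene lists (number tested in brackets), without the muscle score (filled) and with it (open); the dashed line is the median of all tested genes, 0.09. Complement, macrophage, fibroblast, chemokine and extracellular matrix lists lie at 0.55 to 0.85 without the score and at 0.37 to 0.58 with it, and the lists of fatty acid oxidation, the tricarboxylic acid cycle and lipid synthesis lie below 0 without it.

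Of 10 tested white adipocyte genes 3 rose: Nnat, Hoxc8 and Sfrp5. The median of the 10 was 0.75 (0.66 after median-of-ratios rescaling), and 0.44 with the score, and the markers summed to 211 to 412 TPM in CAC and 138 to 225 TPM in Con. Nnat, an imprinted membrane protein of neurons and white fat, measured 9.43, 33.4, 9.07, 3.40 and 17.0 TPM in CAC libraries 1 to 5 and 1.04, 2.23, 3.23, 0.641 and 1.87 TPM in Con libraries 1 to 5. The groups did not overlap, though CAC library 4 stood close to the highest Con library. Its difference was 2.22 (SE 0.62, adjusted p = 0.0268) and also 2.22 (SE 0.70, adjusted p = 0.518) with the score, and r with muscle was 0.02. The NCAC libraries lay at 3.82 to 18 TPM. Hoxc8, a posterior homeobox gene, went from 0.72 to 0.65 with the score, and Sfrp5, a Wnt inhibitor, from 0.79 to 0.43. Lep, which encodes leptin, measured 9.49 to 41.3 TPM in CAC and 9.55 to 55.2 TPM in Con and was not called (-0.11, SE 0.53). Of 14 imprinted growth genes 3 rose, Nnat, Plagl1 and H19, and only H19 tracked muscle.

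Of 20 genes of insulin and IGF signalling 4 rose: Igf1 by 0.94, and the IGF-binding proteins Igfbp4 by 1.22, Igfbp7 by 0.62 and Igfbp5, which tracked muscle (r = 0.66), by 1.23. Psat1 and Phgdh, enzymes of serine synthesis, rose by 1.09 and 1.16 and were the called members of a list of 14 integrated stress response genes. Phgdh measured 11.3, 15.4, 10.05, 11.1 and 10.5 TPM in CAC libraries 1 to 5 and 3.66, 3.92, 6.80, 5.51 and 3.83 TPM in Con libraries 1 to 5. Mast cell proteases Cpa3 and Cma1, the 2 called of 6 tested mast cell and eosinophil markers, rose by 1.15 and 1.40. With the score they went to 0.54 and 0.72. The protease Mcpt4 (1.05) and the receptor Kit (-0.36) were not called. The median of the 6 was 1.04 for CAC minus Con and 1.06 for NCAC minus Con. The Schwann cell gene Prx, which encodes periaxin of the myelin sheath, rose by 0.80 and went to 0.40, with r of 0.54. It was 1 of 2 called among 7 tested nerve and Schwann cell genes, whose median was 0.43, and 0.22 with the score. The myelin gene Mbp measured 12 ± 1.17 TPM in CAC and 10.7 ± 2.26 TPM in Con and was not called. Markers of melanocytes, which the injected cells could carry, summed to 3.98 to 6.84 TPM in CAC and 3.11 to 5.39 TPM in Con, with 2 of 9 at 0 in all 10 libraries and none of the 2 tested called.

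The 6 lower genes were Cd59b, Id1, Hadhb, Ube2ql1, Fam186a and Gm37988, of which the last 3 fall outside the rule and are named because the count is small. Cd59b, a copy of the gene for the surface protein that blocks the final step of complement, measured 5.28, 3.70, 3.95, 2.65 and 4.35 TPM in CAC libraries 1 to 5 and 4.97, 8.19, 8.55, 13.6 and 14.8 TPM in Con libraries 1 to 5. The groups overlapped in 1 pair, and the difference was -1.08 (SE 0.33, adjusted p = 0.045), and -1.14 (adjusted p = 0.583) with the score; reads could have been shared with its paralog Cd59a. Id1, an inhibitor of basic helix-loop-helix factors that BMP signals induce, measured 20.1 to 38.8 TPM in CAC and 37.9 to 59.3 TPM in Con, at -0.68 (adjusted p = 0.0499), and -0.55 with the score. Id3 and the Notch target Hey1 were lower without passing, at -0.58 (adjusted p = 0.0696) and -0.66 (adjusted p = 0.0765). Hadhb, a subunit of the trifunctional protein of fatty acid oxidation, measured 951, 884, 916, 872 and 1001 TPM in CAC and 1122, 1081, 1132, 1143 and 1123 TPM in Con. The groups did not overlap, but the difference of -0.28 went to -0.12 with the score, and its r with muscle was -0.59.

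Few genes of heat production and fuel use passed the test. Ucp1 measured 4528, 3013, 5893, 4491 and 8067 TPM in CAC libraries 1 to 5 and 2460, 5456, 4614, 4431 and 5190 TPM in Con libraries 1 to 5, with overlapping groups (0.21, SE 0.27, adjusted p = 0.774). Dio2, Adrb3 and Ppargc1a, the thyroid hormone activating enzyme, the receptor for noradrenaline and the coactivator of mitochondrial genes, stood at 0.64 (SE 0.65), -0.05 (SE 0.36) and 0.50 (SE 0.48). Pnpla2, the first lipase of lipolysis, stood at -0.06 (SE 0.13) and Adipoq at 0.21 (SE 0.13). Fasn, the fatty acid synthase, measured 3914 ± 332 TPM in CAC and 4763 ± 324 TPM in Con, with no overlap, and was not called (-0.28, SE 0.20, adjusted p = 0.51). Of 25 genes of fatty acid oxidation 1 fell, and of 18 of the tricarboxylic acid cycle, 32 of the nuclear respiratory chain, 24 of fatty acid and triglyceride synthesis and 21 of cholesterol synthesis 0 passed. Their medians were -0.09, -0.16, -0.07, -0.26 and -0.28, and 0.01, -0.02, -0.01, -0.18 and -0.18 with the score. These calls depend on the scaling: after median-of-ratios rescaling 3, 7, 9, 1 and 0 members were lower and none higher.

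Acute phase genes, some of them far higher in CAC at 8 weeks (a log2 difference of 8.09 for Itih4 in limma), gave no call at 2 weeks in the fit of all groups. Of 27 acute phase and IL-6/STAT3 genes 0 passed, with a median of 0.40, and 0.11 with the score. Single libraries differed widely. Itih4, a plasma protein of the inter-alpha-trypsin inhibitor heavy chain family, measured 0.902, 3.21, 31.5, 12.1 and 1.67 TPM in CAC libraries 1 to 5 and 0.777 to 2.05 TPM in Con (1.40, SE 0.67, adjusted p = 0.26). CAC libraries 3 and 4, which were high, are also the 2 with the highest C4b values. Serpina3n, a protease inhibitor, measured 34.1, 47.6, 62.4, 42.5 and 19.7 TPM in CAC and 17.2, 8.26, 18.2, 8.32 and 9.89 TPM in Con. Its groups did not overlap, and the difference of 1.64 (SE 0.52) had an adjusted p of 0.0549 in limma. It passed under 6 alternatives, among them a pseudocount of 0.1 (1.72, adjusted p = 0.0451), and its adjusted p ran from 0.000482 to 1 over all 23 alternatives. Hp, haptoglobin, measured 278 to 725 TPM in CAC and 191 to 567 TPM in Con (0.69, adjusted p = 0.549), and Lcn2, an iron-scavenging protein, 0.322 to 5.22 and 0.208 to 4.34 TPM (0.47, adjusted p = 0.838). Fkbp5, a target of the glucocorticoid receptor, measured 1.21 to 5.91 TPM in CAC and 1.25 to 7.33 TPM in Con (0.52, adjusted p = 0.782). No member of the glucocorticoid (19 tested), interferon (23), antigen presentation (17), immediate early (19), unfolded protein (17) or circadian clock (20) lists passed.

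In the NCAC libraries several of these genes took a middle place. NCAC minus Con, which uses the same Con libraries, called 0 genes in limma, with 943 at an unadjusted p under 0.05. For F13a1 the values were 1.65 for CAC minus Con and 0.95 for NCAC minus Con, for Mrc1 1.13 and 0.52, for Cfb 1.41 and 1.02, for Nnat 2.22 and 1.56, and for Acta1 3.24 and 2.26. For C4b they were 2.67 and 0.45, for Csf2rb 0.96 and -0.56, and for Cd59b -1.08 and -0.14. The median difference of the complement list was 0.79 for CAC and 0.29 for NCAC, and that of the macrophage list 0.85 and 0.53.

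The 2 libraries whose muscle scores cross give a direct view of the 2 kinds of genes. CAC library 5 (score 4.98) holds less muscle RNA than Con library 4 (score 5.77). Of the 92 called muscle list genes 5 were higher in CAC library 5, with a median log2 difference of -0.39, and of the 184 muscle-tracking genes 71 were, with a median of -0.07. Of the 300 genes called higher that did not track muscle 293 were higher in CAC library 5, with a median of 0.54, beside 57.1% and 0.03 over all tested genes. Both libraries helped to choose these genes, so the counts describe them and test nothing. C4b measured 23.8 TPM in CAC library 5 and 3.32 TPM in Con library 4, F13a1 12.8 and 3.84 TPM, Rarres2 33.1 and 16.4 TPM, Mrc1 6.09 and 2.50 TPM, and Acta1 522 and 816 TPM. Without CAC library 1, the one richest in muscle RNA, no muscle list gene was called, and 55 of the 58 called genes were of those that did not track muscle. The same loss of every muscle list call came without CAC library 2 (72 calls) and without Con library 1 (91 calls). The muscle score difference was still 2.43, 2.70 and 2.30 without these libraries, so muscle RNA had not left the comparison.

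The CAC and Con libraries of the later weeks entered neither the 2-week contrast nor the muscle score at 2 weeks. They did enter the filter, the estimate of spread and the correlation that set the classes, so the classes are not independent of them. At 4 weeks, where CAC had the lower muscle score, the 92 muscle list genes had a median CAC minus Con difference of -0.49 with 2 positive, and the 184 muscle-tracking genes -0.44 with 9 positive. The 300 genes that did not track muscle had a median of 0.11 with 200 positive, beside -0.08 and 34.6% positive over all tested genes. The mitochondrial genome took only 39.6% and 39.7% of TPM in Con libraries 3 and 4 of 4 weeks. In the other Con libraries of that week it took 57.1% to 58.7%. Con library 4 of 4 weeks also had the highest muscle score of all libraries, 8.73. How far these 2 libraries set the 4-week values was not tested. At 6 weeks the median of the 300 genes was 0.31 with 249 positive, and at 8 weeks 0.54 with 261 positive, beside 0.18 and 0.28 over all genes. Those shares of 83% and 87% positive lie close to the 80.4% and 85.4% over all tested genes, while the tracking genes stood at -0.04 and 0.12. Between 2 and 8 weeks the CAC minus Con difference changed for 1457 genes (11.6%), 1278 upward and 179 downward, and for 1199 with the score. C4b went from 2.67 to 5.26 (change 2.59, adjusted p = 0.0011) and Csf2rb from 0.96 to 2.19 (change 1.23, adjusted p = 0.02), whereas F13a1, Mrc1 and Cfb did not pass (changes of 0.37, 0.65 and 0.87). Other genes high at 2 weeks turned down: Nnat from 2.22 to -1.04 (change -3.25, adjusted p = 0.01), Retnla from 1.87 to -1.11 (change -2.99, adjusted p = 0.002) and Dpp4 from 0.95 to -0.19 (change -1.14, adjusted p = 0.003). These genes were named for their high 2-week difference, which enters the change. A fall was therefore favoured in advance, and these p-values are no fair test of a downturn.

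**Figure D5:**
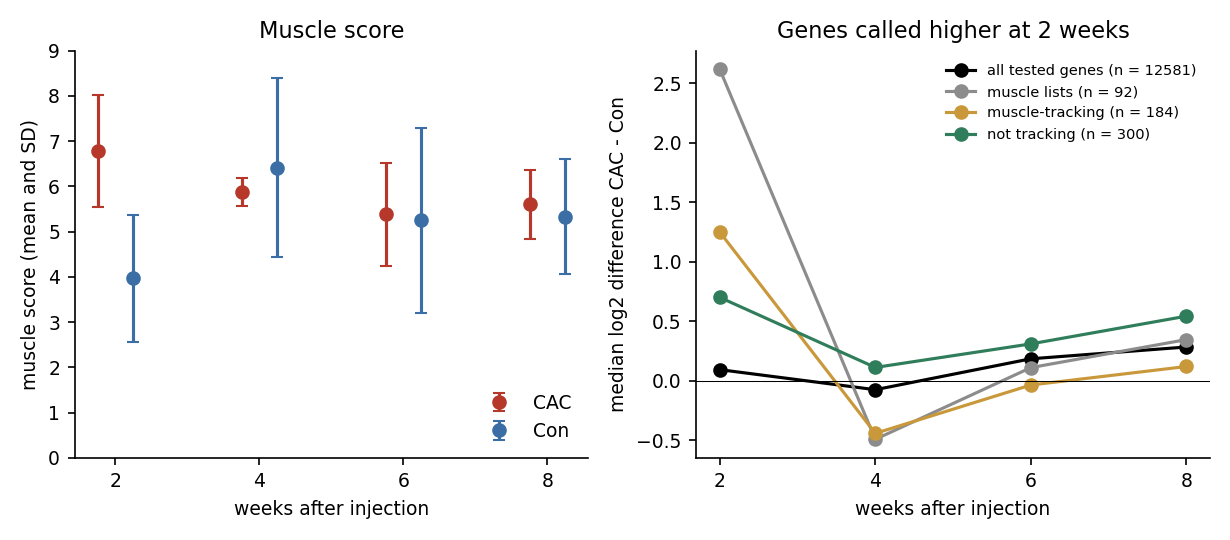
Left, muscle score of CAC and Con by week (mean and SD of 5 libraries, 7 for CAC at 8 weeks). Right, median log2 difference CAC minus Con at each week over the genes called higher at 2 weeks; the genes that did not track muscle (n = 300) stay above the median of all tested genes at each week, and the muscle list (n = 92) and muscle-tracking genes (n = 184) fall from 2.62 and 1.25 at 2 weeks to -0.49 and -0.44 at 4 weeks.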

How the data were processed

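RNA of brown adipose tissue was extracted with Trizol and sequenced as TruSeq stranded mRNA libraries, per the labels' protocols. The authors deposited TPM values for 47643 gene symbols in 62 libraries, on mm10 per the submitters' processing notes; aligner, annotation and quantifier are not given in the sources used here. All libraries have the same sum, so a rise of an abundant set lowers all other values, and depth is unknown. Where nothing beyond the label says that replicates were separate animals, p-values measure the spread between these libraries.

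Values were taken as log2(TPM + 1), which understates the change of low genes, and kept for 12581 genes that reached 1 TPM in 5 or more libraries. limma 3.58.1 in R 4.3.3 was fitted to all 12 groups with a trended prior and Benjamini-Hochberg adjustment at 0.05; the procedure was tested on simulated data. A second fit added the muscle score. Positions are from GENCODE vM21. Members, gene lists and tests were chosen with earlier results of these data known. Named genes are the 15 highest and 15 lowest with the score (or the largest moderated t), the 10 highest and 10 lowest without it, up to 4 per list and 17 standing genes; Retnla, Cbr2, Clec10a, C3, C4a, Cd59a, Mbp, Timd4, Cd55, Csf1 and the other list members and small-count genes beyond these were named after their values were seen. Some results are not reported here. Alternatives changed pseudocount, filter, scaling, libraries, weights, replicate block and muscle covariate.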

Additional observations from a re-analysis of the deposited data

Results flagged for a closer look

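In 11 of 184 sets of 5 libraries looked at, 1 library stood apart from the other 4 by Dixon's ratio (critical value 0.71); chance flags about 1 in 20 such sets. In CAC, library 5 was low for Atp2a2 (95.9 TPM) and Serping1 (44.4 TPM), and library 2 was high for Phgdh (15.4 TPM). In Con, library 5 was high for C1qa (30.3 TPM), C1qc (11.4 TPM), Fam186a (1.53 TPM) and Fkbp5 (7.33 TPM), library 3 high for Plagl1 (0.789 TPM) and library 4 high for Pnpla2 (1430 TPM). Con library 1, which had the lowest muscle score, was low for Rap1a (23.3 TPM) and Ucp1 (2460 TPM).

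The CAC minus Con difference of 89 named genes was tested for a change from 2 weeks to each later week in limma, and 40 changes passed an adjusted p of 0.05. By 4, 6 and 8 weeks 6, 8 and 26 of the 89 changed, beside 154, 167 and 1457 of all 12581 tested genes. The 89 were named largely with their 2-week difference known. That difference enters every change, so these counts are a description and no result about the 89 genes. From 2 to 4 weeks the difference changed on the log2 scale by -1.64 for Clec3b, -1.19 for Dpp4, -2.63 for Epdr1, -1.32 for Gm20721, -1.25 for Gsn and 3.70 for Itih4. From 2 to 6 weeks it changed by -1.27 for Dpp4, -1.23 for Gsn, 4.38 for Hp, 5.68 for Itih4, -3.18 for Nnat, -1.67 for Phgdh, 0.644 for Pnpla2 and -3.52 for Retnla.

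From 2 to 8 weeks the difference grew by 0.953 for C3, 2.85 for C4a, 2.59 for C4b, 2.27 for Ccl8, 1.39 for Cd163 and 1.23 for Csf2rb. It grew by 3.68 for Fkbp5, 3.97 for Hp, 6.69 for Itih4, 3.59 for Serpina3n, 0.903 for Pnpla2, 0.989 for Ly6c2 and 0.783 for Igfbp7. Fam186a, Gm37988 and Id1, lower in CAC at 2 weeks, moved by 0.576, 0.870 and 0.843. The change was -3.84 for Ckmt2, -1.92 for Epdr1 and -1.87 for Igfbp5, which go with muscle, and -1.09 for Clec3b, -1.14 for Dpp4, -1.30 for Gm20721, -3.25 for Nnat, -1.34 for Phgdh, -2.99 for Retnla and -0.885 for Timd4. The muscle score difference also changed between these weeks, from 2.82 at 2 weeks to -0.53, 0.14 and 0.27 at 4, 6 and 8 weeks. With the score as a covariate 0 of the 6 changes from 2 to 4 weeks passed, 3 of the 8 from 2 to 6 weeks (Hp, Itih4 and Retnla) and 20 of the 26 from 2 to 8 weeks, where those of C3, Clec3b, Epdr1, Fam186a, Id1 and Phgdh no longer passed.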

How the results depend on the processing

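The 582 calls became 341 with a filter at 5 TPM, 1207 in a fit of the 2 groups alone and 1986 with library weights. Leaving out 1 library gave 58 to 888 calls without the score and 0 to 2 with it. Without CAC library 1 and Con library 1 together 21 genes were called (1 with the score), and with only CAC libraries 3 and 5 against Con libraries 2 and 4, whose scores overlap, 1 was (1 with the score); both were chosen after seeing the data and leave fewer samples. Quantile normalization gave 352 higher and 119 lower calls. With the score, the 2 calls became 1 at a pseudocount of 0.1, 4 with no filter, 1 at 5 TPM, 0 in a fit of the 2 groups alone, 119 with library weights, 6 without mitochondrially encoded genes and 1 without Con libraries 3 and 4 of 4 weeks. Subtracting slopes from the other 10 groups gave 15 calls on the log scale and 55 on the linear scale. The cause of these moves was not tested. The replicate block gave 543 calls without and 1 with the score; same-numbered libraries correlated at -0.199 to 0.0728 and 0 libraries correlated best with their own number, so the numbers were not taken to pair the samples. The change calls fell with the score from 154 to 0 (2 to 4 weeks) and from 167 to 59 (2 to 6 weeks). The mitochondrial share difference ran from -2.46 to -1.63 percentage points with 1 library left out. Of the settings tried for single named genes 2045 kept their call or lack of one, 91 lost the call and 86 gained one. None reversed direction with a call in either fit. A change of sign without a call in either fit was counted as kept. Depth limits could not be given from TPM.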
